A study of Mus musculus with 9 samples.

Results

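The 8 genes described here are those by which the activation state of macrophages is commonly read: Arg1 and Chil3 for the alternative, arginase-type state, Nos2 for the classical, nitric oxide-producing state, Mrc1 and Cd163 for macrophages that reside at tissue borders, and Msr1, Lyz2 and Ly6c2 for scavenging phagocytes and the monocytes they come from. They were chosen by name from the 34745 genes of the table, and each was found once under its symbol. RNA was measured in spinal cord of mice with a complete transection at the thoracic level T9, with 3 libraries at day 0, 3 at day 3 and 3 at day 21. Titles of the later groups carry their day, whereas the group titled Y-N was taken as day 0 because the series design names that day; no source used here says whether those cords had a sham operation. The sources used here do not give strain, sex, age, the length of cord taken or its distance from the lesion. Whether each library came from its own animal is not stated either, so p-values reflect the scatter of these 9 samples, part or all of which may be technical.

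In macrophages and microglia, arginase and inducible nitric oxide synthase use the same substrate, arginine. Arginase, encoded by Arg1, splits it to ornithine and urea, and the synthase, encoded by Nos2, oxidises it to nitric oxide and citrulline. In cultured cells interleukin-4 and interleukin-13 raise Arg1, Chil3 and Mrc1, and interferon-gamma with bacterial products raises Nos2, although cells in injured tissue often carry genes of both programmes. After cord injury, monocytes from the blood enter the lesion and join resident microglia and the macrophages of the meninges and perivascular spaces.

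Library totals ran from 14299679 to 24022923 counts. The marker genes of cord tissue were abundant, with myelin basic protein Mbp at 254.8, 257.1 and 234.1 FPKM on average at days 0, 3 and 21 and the synaptic gene Snap25 at 323.3, 146.8 and 266.1 FPKM. Of 10 such neural and glial markers, 7 were called lower and 2 higher at day 3 than at day 0, and 4 lower and 2 higher at day 21. FPKM is the fragment count scaled by gene length and by the total of the library. The second day 21 library stood apart: its log2 CPM correlated with the other two at 0.983 and 0.980, against 0.997 between those, and results that rest on it are given with and without it. In whole tissue, fewer cells of a type and less RNA per cell cannot be told apart. Of 16494 genes tested with edgeR's quasi-likelihood test (Benjamini-Hochberg adjusted p under 0.05, the threshold for every call below), 24.8% were called higher and 19.5% lower at day 3 than at day 0.

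At day 3, all 8 genes were called higher than at day 0, and in none did the 3 libraries of a group overlap those of the other. Over all tested genes, 37.5% were higher and 30.0% lower without overlap. The differences ran from 1.90 for Nos2 to 8.64 for Arg1 on the log2 scale. At day 21, 6 of the 8 were called higher than at day 0, against 17.9% of all tested genes (11.3% were called lower), and the exceptions were Arg1 and Nos2, the enzymes that share arginine. From day 3 to day 21, 6 of the 8 were called lower, against 16.1% of all tested genes (11.7% were called higher), and the exceptions there were Lyz2 and Ly6c2. The called members were also those whose libraries did not overlap, which over all tested genes held for 27.2% higher and 14.1% lower at day 21 against day 0, and for 22.9% higher and 21.6% lower at day 21 against day 3.

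**Figure D1:**
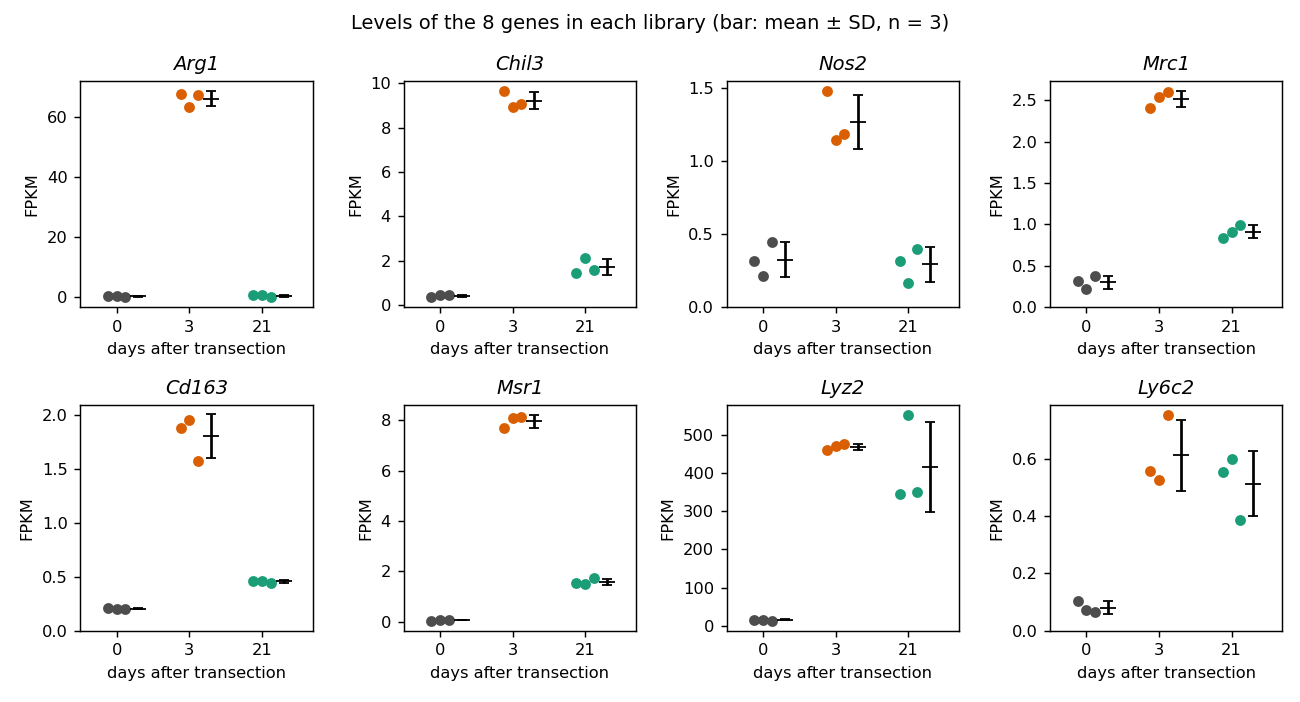
Level of each of the 8 genes (FPKM, vertical axis, a separate linear scale per gene) against days after transection, 1 point per library, with bars for the mean ± SD of 3 libraries. Arg1 stands at 63.3 to 67.7 FPKM at day 3 and at most 0.559 FPKM at the other days, whereas Lyz2 stays at 345 FPKM or more at day 21.

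Arg1, arginase 1 (ENSMUSG00000019987, chromosome 10, 24915208 to 24927470, minus strand, GRCm38, as for all loci here), was close to the detection limit at day 0. It had 0.113, 0.301 and 0.0769 FPKM in the day 0 libraries, from 4, 7 and 2 counts. At day 3 it had 67.7, 63.3 and 67.5 FPKM, from 1608, 1674 and 1486 counts. These libraries were close to each other and far above every other library. Mean levels were 0.164 ± 0.120 and 66.1 ± 2.50 FPKM (SD, n = 3), a log2 difference of 8.64 ± 0.57 (SE, edgeR adjusted p = 3.62e-06), the largest of the 8.

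By day 21 Arg1 was again among the low genes. The libraries held 0.516, 0.559 and 0 FPKM, from 12, 12 and 0 counts, and the group overlapped day 0. Against day 3 Arg1 fell by 7.56 ± 0.53 on the log2 scale (edgeR adjusted p = 2.56e-05). Against day 0 the difference was 1.08 ± 0.80 and was not called (edgeR adjusted p = 0.350); over the alternative settings that p ran from 0.0241 to 0.922, and it passed the threshold when the library with 0 counts was left out, with a difference of 1.64.

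Chil3, a secreted chitinase-like lectin also known as Ym1 (ENSMUSG00000040809, chromosome 3, 106147554 to 106167564, minus strand), was likewise highest at day 3, with a smaller range. It had 0.361, 0.428 and 0.438 FPKM at day 0, then 9.65, 8.93 and 9.05 FPKM at day 3, and 1.44, 2.12 and 1.55 FPKM at day 21. All 3 groups were separate, with the day 21 libraries between the others. Chil3 rose by 4.44 ± 0.19 at day 3 (log2, edgeR adjusted p = 2.99e-07). It then fell by 2.51 ± 0.17 to day 21 (edgeR adjusted p = 1.82e-05), when it was still 1.93 ± 0.20 above day 0 (edgeR adjusted p = 0.000127). Chil3 was thus called at day 21 where Arg1 was not, and whether the day 21 differences of these genes differ was not tested.

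Nos2, the inducible nitric oxide synthase (chromosome 11, 78920787 to 78960254, plus strand), was low at every time. It had 0.318, 0.212 and 0.447 FPKM at day 0 and 1.48, 1.14 and 1.18 FPKM at day 3, from 14 to 33 and from 74 to 100 counts. Nos2 rose at day 3 by 1.90 ± 0.33 (log2, edgeR adjusted p = 0.00149), the smallest of the 8 differences. At day 21 its libraries held 0.318, 0.164 and 0.400 FPKM, overlapping day 0. Against day 3 Nos2 fell by 2.17 ± 0.35 (log2, edgeR adjusted p = 0.00206), and day 21 against day 0 gave -0.27 ± 0.37 (edgeR adjusted p = 0.631).

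Arg1 and Nos2 thus both peaked at day 3 and both overlapped day 0 at day 21, but at different levels. The level of Arg1 divided by that of Nos2 within a library was 0.355, 1.42 and 0.172 at day 0. It was 45.7, 55.3 and 57.0 at day 3, and 1.62, 3.41 and 0 at day 21. The day 3 ratios were above every other library, and those of days 0 and 21 overlapped. These ratios are descriptions, since exact permutation of 3 against 3 libraries cannot go below p = 0.1.

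Mrc1, the mannose receptor CD206 (chromosome 2, 14229392 to 14332057, plus strand), is carried by perivascular and meningeal macrophages and is also raised by interleukin-4. It had 0.313, 0.213 and 0.374 FPKM at day 0, 2.40, 2.54 and 2.59 FPKM at day 3, and 0.836, 0.905 and 0.996 FPKM at day 21. The groups did not overlap, and day 21 lay between. Mrc1 rose by 3.00 ± 0.19 at day 3 (log2, edgeR adjusted p = 2.86e-06) and was 1.47 ± 0.19 above day 0 at day 21 (edgeR adjusted p = 0.000607), after a difference of -1.53 ± 0.18 from day 3.

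Cd163, the scavenger receptor for haptoglobin-haemoglobin complexes (chromosome 6, 124304656 to 124330527, plus strand), had the same order of days as Mrc1. Its libraries held 0.209, 0.201 and 0.204 FPKM at day 0, 1.88, 1.96 and 1.57 FPKM at day 3, and 0.465, 0.465 and 0.442 FPKM at day 21. The groups were again separate. Cd163 rose by 3.08 ± 0.15 at day 3 (log2, edgeR adjusted p = 6.07e-07), was 1.03 ± 0.16 above day 0 at day 21 (edgeR adjusted p = 0.00138), and differed by -2.05 ± 0.14 between days 21 and 3 (edgeR adjusted p = 2.41e-05). The level of Cd163 divided by that of Mrc1 was 0.546 to 0.942 at day 0, 0.606 to 0.780 at day 3 and 0.444 to 0.557 at day 21, so the ratio overlapped between day 0 and each later day and was lower at day 21 than at day 3 without overlap.

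Msr1, the class A macrophage scavenger receptor that takes up modified lipoproteins and debris (chromosome 8, 39581700 to 39642678, minus strand), was the least abundant of the 8 at day 0 and the fourth most abundant at day 3. It had 0.0417, 0.0635 and 0.0568 FPKM at day 0, from 4 counts in each library. At day 3 it had 7.68, 8.08 and 8.13 FPKM, and at day 21 it had 1.52, 1.496 and 1.71 FPKM. The groups were separate, and Msr1 stayed far above its starting level. It rose by 7.15 ± 0.19 at day 3 (log2, edgeR adjusted p = 5.12e-08) and was 4.74 ± 0.19 above day 0 at day 21 (edgeR adjusted p = 8.28e-07), the largest day 21 difference of the 8.

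Lyz2, lysozyme M, the antibacterial enzyme of macrophages and neutrophils (chromosome 10, 117277334 to 117282274, minus strand), was the most abundant of the 8 at each time and in each library. It had 16.8, 16.2 and 14.1 FPKM at day 0, 460, 471 and 475 FPKM at day 3, and 345, 552 and 350.2 FPKM at day 21. Lyz2 rose by 4.85 ± 0.20 at day 3 (log2, edgeR adjusted p = 2.35e-07) and was 4.59 ± 0.19 above day 0 at day 21 (edgeR adjusted p = 8.88e-07). The second day 21 library was above every day 3 library and the other day 21 libraries were below them. The difference from day 3 was -0.25 ± 0.16 (edgeR adjusted p = 0.297); without that library it was -0.49 and was called (edgeR adjusted p = 0.00023).

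Ly6c2 encodes the surface antigen by which inflammatory monocytes are sorted (chromosome 15, 75108158 to 75111970, minus strand). It had 0.105, 0.0727 and 0.0651 FPKM at day 0, 0.556, 0.524 and 0.753 FPKM at day 3, and 0.553, 0.599 and 0.385 FPKM at day 21. The later groups overlapped each other and were both above day 0. Ly6c2 rose by 2.81 ± 0.30 at day 3 (log2, edgeR adjusted p = 6.71e-05) and was 2.49 ± 0.30 above day 0 at day 21 (edgeR adjusted p = 0.000393), with a difference of -0.32 ± 0.25 between the later days that was not called (edgeR adjusted p = 0.375).

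**Figure D2:**
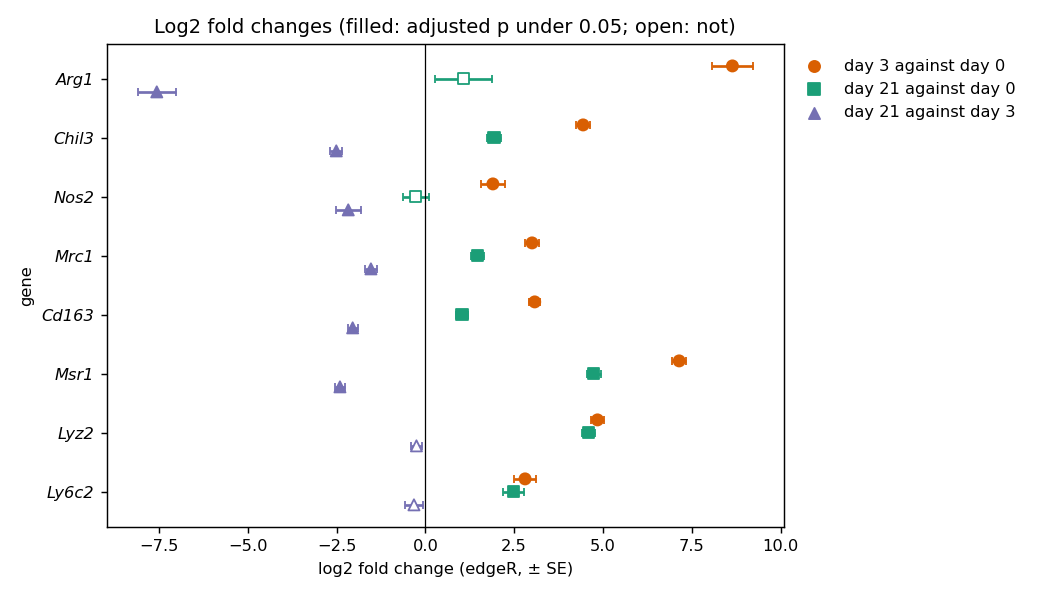
Log2 fold change from edgeR (horizontal axis, ± SE) of the 8 genes (vertical axis) in each of the 3 comparisons, filled where the adjusted p was under 0.05. Every day 3 point lies right of 0, from 1.90 to 8.64, and the open points are Arg1 and Nos2 for day 21 against day 0 and Lyz2 and Ly6c2 for day 21 against day 3.

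The order of mean levels changed with time. At day 0 Lyz2 was followed by Chil3, Nos2 and Mrc1, whose libraries overlapped, then by Cd163, Arg1 and Ly6c2, which overlapped as well, and by Msr1. At day 3 the order was Lyz2, Arg1, Chil3, Msr1, Mrc1, Cd163, Nos2, Ly6c2, with no overlap between neighbours. At day 21 it was Lyz2, then Chil3 and Msr1, which overlapped, then Mrc1, then Ly6c2, Cd163, Arg1 and Nos2, which overlapped with their neighbours. Of the summed FPKM of the 8 genes, Arg1 made up 0.487% to 1.70% at day 0, 11.4% to 12.3% at day 3 and 0% to 0.147% at day 21. Lyz2 made up most of that sum, 89.5% to 92.0% at day 0, 83.4% to 84.5% at day 3 and 98.4% to 98.9% at day 21. The share of Arg1 was thus lower at day 21 than at day 0, although its own levels overlapped between these days.

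Ly6c2 and Lyz2 each have a near-identical neighbour, Ly6c1 (chromosome 15, 75044018 to 75048830) and Lyz1 (chromosome 10, 117287796 to 117292868), and the sources used here do not say how fragments matching both were counted. Parts of their coding sequences are shown because the sequences set how far the counts of each pair can be told apart. For each pair the 120 bases with the most differences were taken, 6 for the Ly6c pair and 14 for the lysozyme pair. The rest of the coding sequence is more alike. The stretches run 5′ to 3′ from GENCODE M21 transcripts, coding bases 1 to 120 for the Ly6c pair and 37 to 156 for the lysozyme pair, with the bases that differ in capitals:
Ly6c2: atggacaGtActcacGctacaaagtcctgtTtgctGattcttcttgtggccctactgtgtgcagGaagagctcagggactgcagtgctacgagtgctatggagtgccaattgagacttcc
Ly6c1: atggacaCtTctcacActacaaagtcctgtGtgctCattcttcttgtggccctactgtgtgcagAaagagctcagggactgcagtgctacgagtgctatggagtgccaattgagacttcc
Lyz2: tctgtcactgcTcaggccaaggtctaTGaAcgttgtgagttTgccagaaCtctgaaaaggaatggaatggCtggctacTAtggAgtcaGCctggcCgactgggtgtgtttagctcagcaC
Lyz1: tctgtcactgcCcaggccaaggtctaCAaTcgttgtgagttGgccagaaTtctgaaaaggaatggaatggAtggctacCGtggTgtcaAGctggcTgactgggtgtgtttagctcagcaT

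Over the whole coding sequence the Ly6c pair differs at 9 of 396 bases and the lysozyme pair at 22 of 447. Of all 100-base windows along the transcript, 15.8% of those of Ly6c2 occur letter for letter in Ly6c1, and 1.97% of those of Lyz2 occur in Lyz1. Within the coding sequence alone these shares were 30% and 5.46%. Ly6c1, an antigen of endothelial cells as well as of lymphocytes, was the more abundant of its pair, with means of 11.2, 23.7 and 13.5 FPKM at days 0, 3 and 21. It rose at day 3 by 1.02 ± 0.12 (log2, edgeR adjusted p = 0.00016) and its day 21 difference from day 0 was 0.14 (edgeR adjusted p = 0.443), beside 2.49 for Ly6c2. The values of Ly6c2 are uncertain for this reason. Lyz1 had at most 27 counts in a library, so fragments assigned to it were few beside those of Lyz2.

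Promoter sequence from RefSeq (GRCm38.p6) was matched for 5 of the 8 genes. The 250 bases before the start are shown for a gene from each of the arginase-type, resident and monocyte groups. All 8 genes were called higher at day 3, so the shared direction does not set these groups apart. Capitals mark the matches to the motifs searched on both strands.
Chil3, chr3:106167565-106167814, minus strand: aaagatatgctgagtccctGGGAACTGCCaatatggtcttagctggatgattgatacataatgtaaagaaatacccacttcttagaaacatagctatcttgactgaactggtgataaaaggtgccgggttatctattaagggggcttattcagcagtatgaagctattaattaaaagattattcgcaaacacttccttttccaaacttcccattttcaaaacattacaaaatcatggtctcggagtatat
Cd163, chr6:124304401-124304650, plus strand: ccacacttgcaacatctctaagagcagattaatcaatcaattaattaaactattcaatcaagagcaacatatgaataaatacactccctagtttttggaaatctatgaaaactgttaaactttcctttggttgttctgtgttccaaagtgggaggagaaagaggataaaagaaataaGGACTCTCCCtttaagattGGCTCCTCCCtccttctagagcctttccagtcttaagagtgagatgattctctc
Ly6c2, chr15:75111972-75112221, minus strand: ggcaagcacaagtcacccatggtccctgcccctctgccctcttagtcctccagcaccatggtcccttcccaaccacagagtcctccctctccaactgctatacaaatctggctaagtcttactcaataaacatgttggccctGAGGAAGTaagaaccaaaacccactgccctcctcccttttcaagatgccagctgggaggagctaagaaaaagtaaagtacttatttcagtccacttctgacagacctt

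The Chil3 window holds 1 match to the NF-kB motif, GGG and CC with 5 bases between, 231 to 222 bases before the start. The Cd163 window holds 2 NF-kB matches on the opposite strand, 73 to 64 and 54 to 45 bases before the start. The Ly6c2 window holds 1 match to the PU.1 motif GAGGAAGT, 108 to 101 bases before the start. The table lists another start for Ly6c2, whose window (75111938 to 75112187) holds 2 matches to that motif, 142 to 135 and 8 to 1 bases before it. No window of the 3 holds the STAT6 motif, TTC and GAA with 4 bases between. Of 32851 promoter windows of the same length, 45.8% hold the NF-kB motif, 2.44% the PU.1 motif and 5.85% the STAT6 motif. A match describes the letters of the window and not a bound site.

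To set the members beside more general genes of these cells, each level was divided, library by library, by a geometric mean. It was that of 10 genes shared by macrophages and microglia (Aif1, Csf1r, Ptprc, Itgam, Adgre1, Cd68, Tyrobp, Fcer1g, Laptm5, Spi1). That mean was 2.60, 2.39 and 2.35 FPKM at day 0, 21.0, 19.5 and 21.3 FPKM at day 3, and 15.2, 17.9 and 14.7 FPKM at day 21. The 10 genes were each called higher at both later days than at day 0, so they moved with the members. What part the amount of macrophage and microglial RNA had in the members' differences was not tested. Which cells gave the RNA of the 10 genes was not measured, so a ratio can differ between days through its divisor. Itgam has 2 entries in the table, which makes its value uncertain, and its day 21 call (edgeR adjusted p = 0.028) was lost under 7 of 21 alternative settings, the replicate block among them (adjusted p = 0.0532).

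Arg1, Chil3, Msr1 and Lyz2 were higher at day 3 relative to this mean as well. The Arg1 ratio was 0.0327 to 0.126 at day 0 and 3.16 to 3.25 at day 3, the Chil3 ratio 0.139 to 0.186 and 0.424 to 0.460, the Msr1 ratio 0.0160 to 0.0265 and 0.366 to 0.414, and the Lyz2 ratio 6.01 to 6.79 and 21.9 to 24.1. Mrc1 and Cd163 overlapped day 0 at day 3, at 0.0891 to 0.159 against 0.115 to 0.130 and at 0.0806 to 0.0868 against 0.0736 to 0.1004. The Ly6c2 ratio overlapped at all times, and the Nos2 ratio was 0.0886 to 0.190 at day 0 and lower, at 0.0554 to 0.0707, at day 3.

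At day 21 the ratios separated the members in another way. Lyz2 was at 22.7 to 30.9 and Msr1 at 0.0837 to 0.117, both above day 0. Chil3 (0.0948 to 0.119), Mrc1 (0.0507 to 0.0677), Cd163 (0.0260 to 0.0307) and Nos2 (0.00918 to 0.0272) were below their day 0 ratios without overlap. Arg1, at 0 to 0.0340, overlapped its day 0 ratios. Relative to the mean of these 10 genes, Mrc1 and Cd163 thus overlapped day 0 at day 3 and were under it at day 21. Their levels per library were above day 0 at both times.

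**Figure D3:**
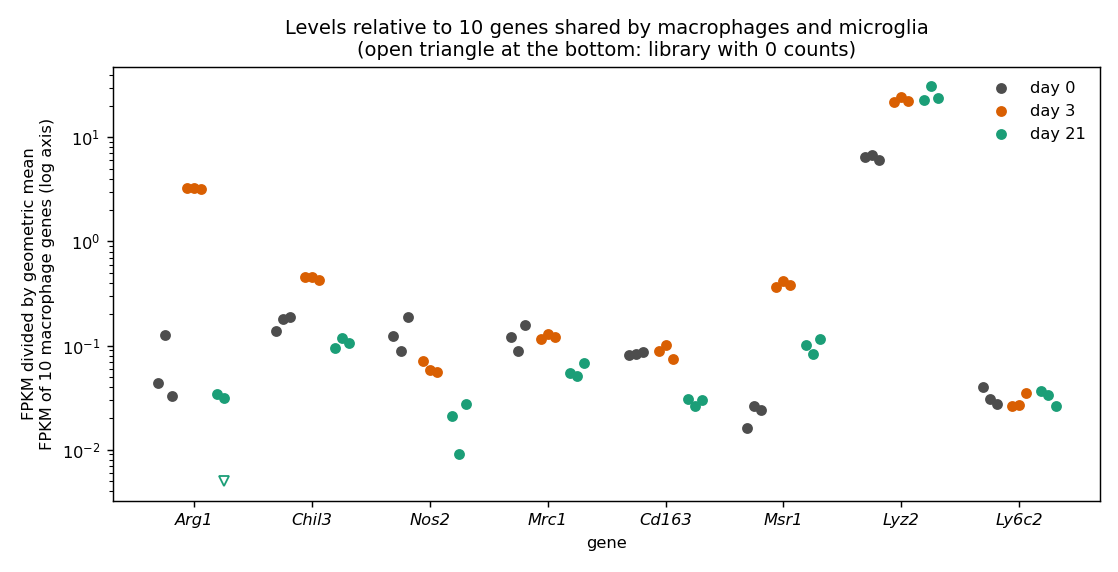
Level of each of the 8 genes divided by the geometric mean of 10 genes shared by macrophages and microglia (vertical axis, logarithmic), 1 point per library, by day. Arg1 reaches 3.16 to 3.25 at day 3, Lyz2 remains at 22.7 to 30.9 at day 21, and the Ly6c2 points of the 3 days overlap; an open triangle marks the day 21 library with 0 Arg1 counts.

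The other genes of the alternative activation programme, without the members, were mostly called higher as well. Of 17 listed genes 11 were tested; 8 were called higher and 1 lower at day 3 (median log2 difference 2.77, against 0.00807 over all tested genes), and 6 higher and 0 lower at day 21 against day 0. Il4ra, the receptor chain shared by interleukin-4 and interleukin-13, had means of 1.44, 10.4 and 2.40 FPKM at days 0, 3 and 21 and rose by 2.79 at day 3 (log2, edgeR adjusted p = 2.14e-07). Cd200r1, an inhibitory receptor of myeloid cells, rose by 5.02 ± 0.52 (edgeR adjusted p = 6.27e-05). The gene called lower was Mgl2, a galactose-type lectin, at -1.82 (edgeR adjusted p = 0.0457); its call was lost under 11 of 20 alternative settings, and it is named because it was the exception. Retnla, another textbook marker of this state, had 0 to 18 counts per library and was not tested.

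The ligands Il4 and Il13, and the related cytokine gene Il10, were not detected. They had 0 counts in each of the 9 libraries, which allows up to 3 of 150946576 counts, or 0.0199 CPM, each. Among 24 genes of activating signals and their receptors 19 were tested, and 17 were called higher and 0 lower at day 3. They included Csf2rb, a receptor chain for granulocyte-macrophage colony-stimulating factor, at 4.55 (log2, edgeR adjusted p = 6.86e-07).

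The classical activation genes without Nos2 were called higher at day 3 in 17 of 18 tested of 23 listed, and at day 21 against day 0 in 16 of 18, with medians of 2.73 and 2.72. Nos2, at -0.27 and not called, was thus outside the majority of its list at day 21. Socs3, a feedback inhibitor of cytokine signalling, had means of 0.668, 33.5 and 5.51 FPKM and rose by 5.59 ± 0.21 at day 3 (log2, edgeR adjusted p = 1.65e-07). Ptgs2, the inducible cyclooxygenase, had 0.142, 4.61 and 0.704 FPKM. From day 3 to day 21 the list went both ways, with 5 genes called higher and 8 lower; leaving out 1 library at a time gave 3 to 5 higher and 4 to 9 lower, with 4 lower in the fit with a replicate block.

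The interferon-inducible chemokine Cxcl10 was among those called higher at day 21 than at day 3, with means of 0.0977, 1.56 and 3.53 FPKM at days 0, 3 and 21 and a difference of 1.10 between the later days (log2, edgeR adjusted p = 0.00205). Ccl5, another chemokine, differed by 1.79 ± 0.49 (edgeR adjusted p = 0.0248), a call lost without the second or the third day 3 library (edgeR adjusted p = 0.0914 and 0.0933). Cxcl9 and Cd86 were also among the 5 and were named after their values were seen; the call of Cd86 was lost under 7 of 21 alternative settings. Cxcl9, a chemokine induced by interferon-gamma, had 0, 2 and 0 counts at day 0, 1, 1 and 0 at day 3, and 36, 36 and 52 at day 21.

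Among 16 other genes of arginine uptake and use, 15 were tested. Of these 4 were called higher and 3 lower at day 3, with a median of 0.10, and 1 higher and 1 lower at day 21 against day 0. Over all tested genes 24.8% were called higher and 19.5% lower at day 3, close to the shares in this list. Leaving out 1 library at a time gave 1 to 4 lower at day 3 and 0 to 3 lower at day 21, where the gene called lower was the arginine importer Slc7a1 at -0.78 (log2, edgeR adjusted p = 0.0362), a call lost under 9 of 21 alternative settings. Slc7a7, an exporter subunit for basic amino acids, rose from 0.414 to 3.94 FPKM at day 3, by 3.20 ± 0.17 (log2, edgeR adjusted p = 9.30e-07), and was at 1.98 FPKM at day 21. Nos3, the endothelial nitric oxide synthase, rose by 1.49 ± 0.12 at day 3 (log2, edgeR adjusted p = 9.60e-06) and differed from day 0 by 0.05 at day 21 (edgeR adjusted p = 0.791); 32.3% of its exon bases overlap other genes, so its counts are uncertain. The remaining genes called higher at day 3, named after their values were seen, were Odc1, ornithine decarboxylase, which uses the product of arginase (54.1 to 89.1 FPKM), and another importer, Slc7a2 (1.58 to 3.98 FPKM, a call lost under 5 of 21 alternative settings). Arg2, the mitochondrial arginase, had 2 to 18 counts per library and was not tested.

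The resident border macrophage list without Mrc1 and Cd163 was called higher in 10 of 11 tested of 14 listed genes at day 3 (median 3.88) and in 7 of 11 at day 21 against day 0 (median 0.96). From day 3 to day 21, 9 were called lower and 0 higher, and leaving out 1 library at a time gave 6 to 9 lower. Pf4, a chemokine of border macrophages and platelets, had means of 0.463 and 1.44 FPKM at days 0 and 21 and rose by 4.73 ± 0.31 at day 3 (log2, edgeR adjusted p = 3.26e-06). F13a1, the coagulation factor XIII A chain, had 0.722, 15.4 and 1.53 FPKM, and rose by 4.36 ± 0.14 (log2, edgeR adjusted p = 8.89e-08). Siglec1, the sialic acid receptor CD169, had 0.0888, 3.92 and 2.06 FPKM. Ms4a7 was the exception among the named genes, with 3.93 at day 3 and 4.26 at day 21 against day 0 and no call between the later days (difference 0.32, edgeR adjusted p = 0.497).

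**Figure D4:**
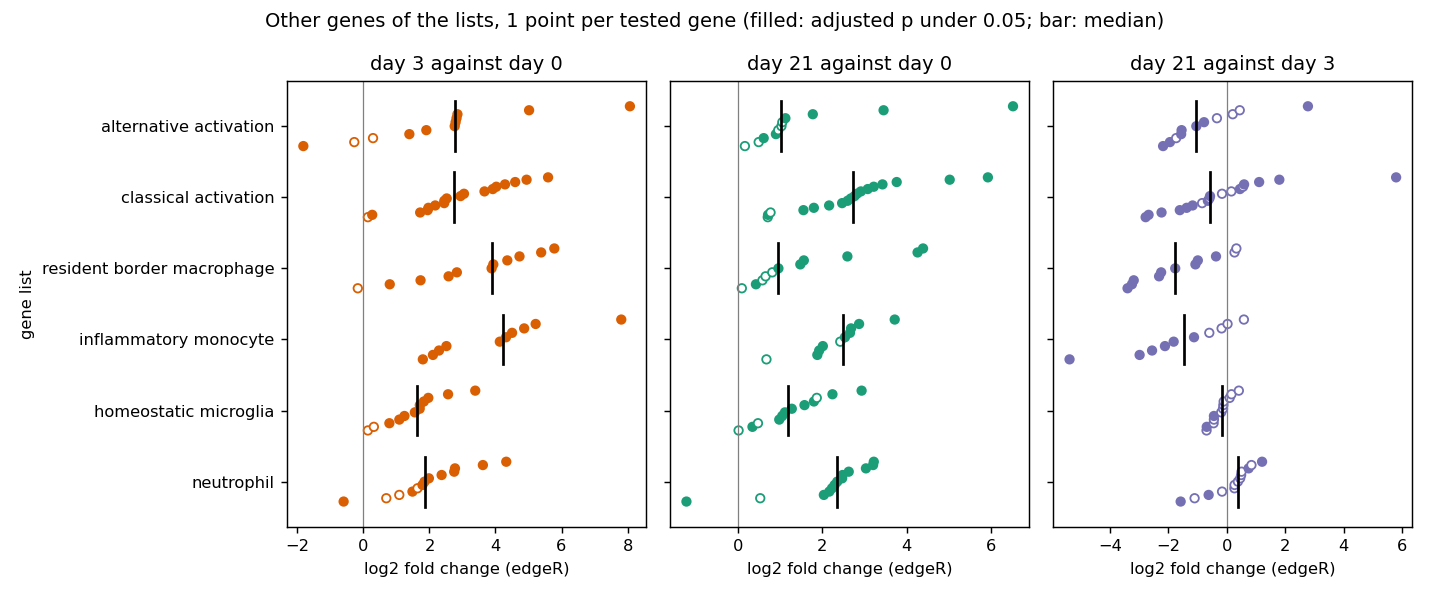
Log2 fold changes from edgeR (horizontal axis) of the tested genes of 6 gene lists without the members (vertical axis), 1 panel per comparison and 1 point per gene, filled where the adjusted p was under 0.05, with a bar at the median. The medians of the alternative and classical lists are 2.77 and 2.73 at day 3 and 1.03 and 2.72 at day 21 against day 0.

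Markers of other cells that carry some of the 8 genes moved as well. Inflammatory monocyte genes without Ly6c2 and Chil3 summed to 7.93 to 8.65 FPKM at day 0, 140.4 to 140.5 at day 3 and 29.3 to 37.99 at day 21, with 10 of 10 tested genes (12 listed) called higher at day 3 and 8 of 10 at day 21; Thbs1, thrombospondin 1, had means of 1.23, 37.2 and 4.92 FPKM. Fibronectin, Fn1, gave 49.0% to 60.7% of that sum at every day. Ccr2, the chemokine receptor of these monocytes, had 0.0125, 0.267 and 0.185 FPKM and is named as their defining gene. Genes of neutrophils, which also express Lyz2, summed to 18.1 to 23.99 FPKM at day 0, 57.5 to 64.5 at day 3, and 70.8, 120.4 and 63.0 in the day 21 libraries. The second day 21 library was the highest in this sum and in Lyz2, but not in these alone. The 10 genes shared by macrophages and microglia summed to 607.7 FPKM there, against 394.1 and 336.5 in the other day 21 libraries. Among the day 21 libraries it was also the highest in the sums of homeostatic microglia (1045), resident border macrophage (155.2) and endothelial genes (85.0). It was the lowest for the inflammatory monocyte genes (29.3). Single genes weigh on these ranks. Gas6 gave 85.1% to 85.7% of the border macrophage sum at day 21, and Cldn5 30.0% to 56.6% of the endothelial sum. Without Cldn5 the endothelial sums were 36.9 to 46.0 FPKM, and the second library was the lowest. Without Fn1 the monocyte sums were 14.1 to 17.0 FPKM, and the second library was not the lowest. Of 16 neutrophil genes 13 were tested, and 9 were called higher and 1 lower at day 3 and 11 higher and 1 lower at day 21. The defining marker Ly6g was not tested, and Stfa2l1 had 0 counts at day 0.

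Genes of homeostatic microglia were called higher in 10 of 12 at day 3 and 9 of 12 at day 21. Their sum was 525 to 542 FPKM at day 0, 1091 to 1148 at day 3 and 876 to 1045 at day 21, but Sparc, a matrix protein gene that astrocytes and vessels also express, made up 79.0% to 82.2% of it at day 0. The other 11 genes summed to 93.8 to 111 FPKM at day 0, 335.5 to 370.0 at day 3 and 313 to 391 at day 21. Endothelial genes, a list that holds Ly6c1, summed to 63.5 to 75.1 FPKM at day 0, 185 to 194 at day 3 and 65.0 to 85.0 at day 21. Of these 8 genes, 6 were called higher and 0 lower at day 3, 0 higher and 1 lower at day 21 against day 0, and 7 lower from day 3 to day 21. The sums and counts of this list include Ly6c1 itself. Cdh5, the cadherin of endothelial junctions, had means of 7.86, 59.0 and 11.04 FPKM and rose by 2.85 at day 3 (log2, edgeR adjusted p = 3.34e-06). Its means had the same order of days as those of Ly6c1 and Nos3. What part these cell types had in the differences of the 8 genes, or of Ly6c1 and Nos3, was not tested.

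Scavenger receptors without Msr1, Mrc1 and Cd163 were called higher in 14 of 17 genes at day 3, against 24.8% of all tested genes. At day 21, 12 of 17 were called higher than at day 0 and 0 lower (median 1.56), against 17.9% higher over all tested genes. From day 3 to day 21, 12 were called lower and 1 higher, against 16.1% lower over all tested genes. Leaving out 1 library at a time gave 8 to 12 lower there. Marco, a class A receptor like Msr1, rose from 0.0588 to 1.91 FPKM at day 3 and, unlike Msr1, stood at 0.0895 FPKM at day 21. Cd36, a class B receptor for oxidised lipids, rose by 5.51 at day 3 (log2). Among the paralogs of the members, Mrc2, the collagen-binding relative of Mrc1, had means of 1.15, 7.59 and 5.94 FPKM, and Chil1, a chitinase-like relative of Chil3, had 5.82, 28.3 and 10.0 FPKM.

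The genes whose levels were most like each member over the 9 libraries were found by Pearson r of log2(FPKM + 0.1) among 12801 genes. The libraries share their group and depth, so r describes the common time course, and it does not measure the size of a change. For Arg1 they were Mettl7a3, Lbh and Dio3 (r = 0.990 each). Dio3, the thyroid hormone-inactivating deiodinase, had means of 0.0277, 1.45 and 0.0452 FPKM at days 0, 3 and 21. Lbh changed far less than Arg1, with 45.9, 58.1 and 46.3 FPKM. For Chil3 they were Tpm4, Alox5ap and Reep4 (0.998 to 0.999), and for Nos2 Itgb3, Mybbp1a and Ska3 (0.972 to 0.984). Mrc1 was most like Cp, Esm1 and Socs3 (0.995 to 0.996), and Cd163 was like Nek2 and Snai1 (0.998 and 0.997). Msr1 was most like Scn10a, Bgn and Col5a1 (0.999 each), of which Bgn and Col5a1 encode matrix proteins. Lyz2 was most like Cd37, Gpr84 and Slc11a1 (0.998 each), all leukocyte genes that stood nearly as high at day 21 as at day 3, for example Slc11a1 with 0.364, 4.81 and 4.39 FPKM. Ly6c2 was most like Ctsh, Plscr2 and AB124611 (0.989 to 0.994), and Ctsh, a lysosomal protease, had 2.19, 11.4 and 10.4 FPKM.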

How the data were processed

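Poly-A RNA of 9 spinal cord samples was made into paired-end TruSeq libraries, per the labels' protocols. The submitters' processing notes name HISAT2, StringTie and GRCh38; the loci in the deposited table are those of mouse GRCm38. The sources used here do not give the annotation, the strand setting or the treatment of fragments matching several genes. The authors deposited raw counts per gene and FPKM for 34745 genes, per the file headers; FPKM was used for levels and counts for tests.

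Members and gene lists were chosen with earlier results of these data known. Counts were fitted in R 4.3.3 with edgeR 4.0.16: TMM scaling, filterByExpr at its defaults (16494 genes, all 8 members among them), a robust quasi-likelihood fit of all 9 libraries (6 residual degrees of freedom), two-sided tests, Benjamini-Hochberg adjustment over all tested genes. SE is the absolute log2 fold change divided by the square root of F. Calls were tested on simulated data for day 3 against day 0 only, so that test does not bear on the day 21 calls. Named genes were the members, their paralogs, up to 4 called genes per list and comparison with the largest change and a mean of at least 1 FPKM, and the 3 most alike genes per member; some items are not reported here. Of 21 alternatives, among them limma 3.58.1 and DESeq2 1.42.0, limma voom with sample weights was added after seeing the data.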

Additional observations from a re-analysis of the deposited data

Results flagged for a closer look

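For 6 of the 8 genes the difference from day 0 was not the same at the 2 later times, by edgeR's quasi-likelihood test of day 21 against day 3. The day 21 difference was below the day 3 difference by -7.56 (log2) for Arg1, -2.51 for Chil3, -2.17 for Nos2, -1.53 for Mrc1, -2.05 for Cd163 and -2.40 for Msr1, each lower in 3 of 3 day 21 libraries than in every day 3 library. The adjusted p-values from edgeR were 2.56e-05, 1.82e-05, 0.00206, 0.000365, 2.41e-05 and 6.82e-06. Both differences use the same day 0 libraries.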

How the results depend on the processing

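Of the comparisons of single members with the 21 alternatives, 168 of 168 kept direction and call at day 3 against day 0, 164 of 167 at day 21 against day 0 and 166 of 168 at day 21 against day 3. Nos2 at day 21 against day 0 changed sign, to 0.022 without the third day 0 library and to 0.021 without the second day 21 library (-0.55 to 0.022 over the libraries left out in turn), and Arg1 there was called without the third day 21 library. Lyz2 at day 21 against day 3 was called without the second day 21 library and with voom weights (-0.48). Leaving out 1 library at a time gave 8 members called higher at day 3, 6 to 7 higher at day 21, and 6 to 7 lower from day 3 to day 21. Over all genes the same gave 3504 to 5354 higher and 2361 to 4891 lower at day 3, 2262 to 4207 higher and 1011 to 3748 lower at day 21, and 1006 to 3941 higher and 1887 to 4305 lower from day 3 to day 21; the high ends were without the second day 21 library.

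Against 1864 genes lower at day 21 than at day 0, scaling by library totals gave 1076, a fit of those 2 groups alone 801, limma on log2(FPKM + 0.1) 1152, limma on log2(FPKM + 1) 1218 and voom weights 3956. The higher genes were 61.3% of calls there, 76.9% with library totals (a median shift of 0.12), 72.5% in the fit of 2 groups and 74.9%, 73.2% and 71.4% with limma on FPKM with pseudocounts of 0.1, 1 and 5. Voom weights gave 5239 lower at day 3 against 3217, and from day 3 to day 21 4441 higher against 1928 and 4853 lower against 2657. The second day 21 library had a weight of 0.0583 there, and the other libraries had 0.354 to 2.031. What part that weight had in the counts was not tested.

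Same-numbered libraries of different days did not deviate together (correlations of -0.146 to 0.107, with 1 of 9 libraries closest to its own number), so the numbers were not taken as pairs. With a replicate block no member's call changed, and it gave 8, 6 and 6 members called, 3775 genes higher at day 3 and 2516 at day 21. Depth limits Arg1 at days 0 and 21, Msr1 at day 0, and Nos2 and Ly6c2 throughout, with at most 100 counts a library.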
